A study of Mus musculus with 8 samples.

Results

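The acyl-CoA dehydrogenases are the flavin enzymes that take the first step of each round of mitochondrial β-oxidation, introducing a double bond into an acyl-CoA and passing the electrons to the electron transfer flavoprotein. The family divides the work by the chain of the substrate: Acadvl, Acadl, Acadm and Acads act on very long, long, medium and short straight chains, and Acadsb, Acad8 and Ivd act on the short branched acyl-CoAs that come from isoleucine, valine and leucine. Acad9 is an assembly factor of respiratory complex I, and Acad10 and Acad11 carry an additional kinase-like domain and act on hydroxylated acyl-CoAs. The 10 genes were chosen by name, as rows of the deposited table, and all 10 were found among its 54091 rows. All 10 passed the filter on low values that left 15657 genes for testing.

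RNA was sequenced from white quadriceps, a pale, fast-twitch thigh muscle, of male mice, 11 to 14 weeks old, kept on a diet with 60% fat over 7 days. Control libraries numbered 4 (replicates 1 to 4) and came from mice labelled Loxp/Loxp, with loxP sites on both copies of Acot2. Knockout libraries also numbered 4 (replicates 5 to 8), from mice labelled CKM Cre, with Acot2 lost in muscle. Cre driven by the muscle creatine kinase promoter acts in muscle fibres and heart, so that other cells of the tissue keep Acot2. The diet and sex were shared by both groups, and Cre was present only in the knockouts, so an effect of Cre and one of the lost gene cannot be told apart. Acot2 encodes a mitochondrial thioesterase that splits long-chain acyl-CoA, the substrate of Acadvl and Acadl, and the comparison asks what changes in glycolytic muscle without it when lipid supply is high. Whether each library is a separate animal is not given in the sources used, so the p-values cover the spread between these libraries, which may be technical.

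Reads assigned to genes, recovered from the normalized counts, numbered 55284019 to 109101282 per library. Control replicates 4 and 3 had the most, at 109101282 and 85095798. The targeted gene checked the labels: Acot2 had a normalized count of 2166 to 4165 in the controls and of 256 to 354 in the knockouts. Control replicates 3 and 4 stood apart from the other 6 libraries, at 55.2 and 56.1 on the first principal component against -38.6 to 0.56. Their genes also deviated by transcript length: the quartile of shortest genes had a median log2 deviation of -0.29 and -0.31 in these libraries and of 0.06 to 0.17 elsewhere. Fast-fibre markers were present at a summed normalized count of 8621610 to 10971600, as the label of white muscle asks. Slow and oxidative markers ran from 185763 in control replicate 4 to 410585 in control replicate 3, with 361255 in knockout replicate 6. Knockout replicate 8 held heart markers (a sum of 12722 over 9 genes, against 1037 to 1893 in the other 7 libraries). The brown fat gene Ucp1 was at 1458 and 885 in knockout replicates 5 and 8, at 133 in control replicate 3 and at 0 to 16.8 elsewhere. All 8 macrophage markers had higher estimates in the knockouts, with sums of 7579 to 11690.2 in controls and 11898 to 19108 in knockouts. All 7 markers of fibro-adipogenic progenitors were also higher by estimate, with sums of 142134 to 178637 in controls and 180425 to 223996 in knockouts. Gsn held most of these sums, at 76373 to 104808 in controls and 108121 to 122192 in knockouts. Pdgfra hardly differed, at a log2 difference of 0.008. Of 5 endothelial markers, 0 had higher estimates. Liver transcripts summed to 369 in control replicate 1 and 850 in knockout replicate 5, against 12.2 to 29.1 elsewhere. The part of these other cells in the values below was not tested, and in bulk tissue fewer cells of a type and less RNA per cell cannot be told apart.

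The promoters of Acadm and Acadvl are shown because these were the members, of the 9 matched to RefSeq promoters (GRCm38.p6), whose 250 bases before the start held the hexamer AGGTCA on either strand. That hexamer is the core that nuclear receptors such as the fatty acid sensors of the PPAR family bind, and fatty acid oxidation genes are textbook targets of these receptors. Both windows are printed 5′ to 3′ on the minus strand that carries the genes, with the hexamer or its reverse complement in capitals. The first is chr3:153944644-153944893 and the second chr11:70015429-70015678.
Acadm: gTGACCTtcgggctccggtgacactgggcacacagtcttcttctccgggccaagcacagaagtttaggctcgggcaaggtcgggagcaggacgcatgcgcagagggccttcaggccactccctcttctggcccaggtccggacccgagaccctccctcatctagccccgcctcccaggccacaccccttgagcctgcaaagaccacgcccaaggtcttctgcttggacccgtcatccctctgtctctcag
Acadvl: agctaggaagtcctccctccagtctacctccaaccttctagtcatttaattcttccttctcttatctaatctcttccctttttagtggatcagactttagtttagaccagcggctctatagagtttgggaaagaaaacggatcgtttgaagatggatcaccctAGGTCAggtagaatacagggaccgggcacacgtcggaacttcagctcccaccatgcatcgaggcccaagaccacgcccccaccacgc
The match lay at position -249 in Acadm and at position -87 in Acadvl, counted from the transcript start. Of the same 250 bases of all 32851 promoters, 14.0% held the hexamer, so its presence in 2 of 9 is a description only. The longer form TNAAGGTCA and a direct repeat of the hexamer with 1 base between, which both contain the hexamer, were found in 0 of the 9 windows and in 1.14% and 0.0335% of all windows. The letters GGGCGG, a GC box, were in 5 of the 9 (Acadl, Acads, Acadsb, Acad8 and Acad11) and in 32.7% of all windows.

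None of the 10 dehydrogenase transcripts passed the test between knockout and control, in a fit where 0.00639% of all genes did (1 of 15657, Acot2 itself). Estimates were higher in knockouts for 4 members and lower for 6, with a median log2 difference of -0.09 against 0.00 over all genes tested. Acadsb, the isoleucine-pathway enzyme, was the 1 member whose groups did not overlap, with knockout values at 0.745 times the control values. Acad8 and Acads, of the valine pathway and of short straight chains, had estimates of 1.20 and 1.19 times the control level. The long- and medium-chain enzymes Acadl and Acadm differed least, at 1.02 and 1.05 times. At an unadjusted p under 0.05 there was 1 member, Acadsb, which is 10% of the list, against a background of 26.9% of all genes in either direction and 13.3% lower. No overlap was seen in 1 of 10 members, against 13.1% of all genes. Both shares lie near or below the background, so they are no result about the family.

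**Figure D1:**
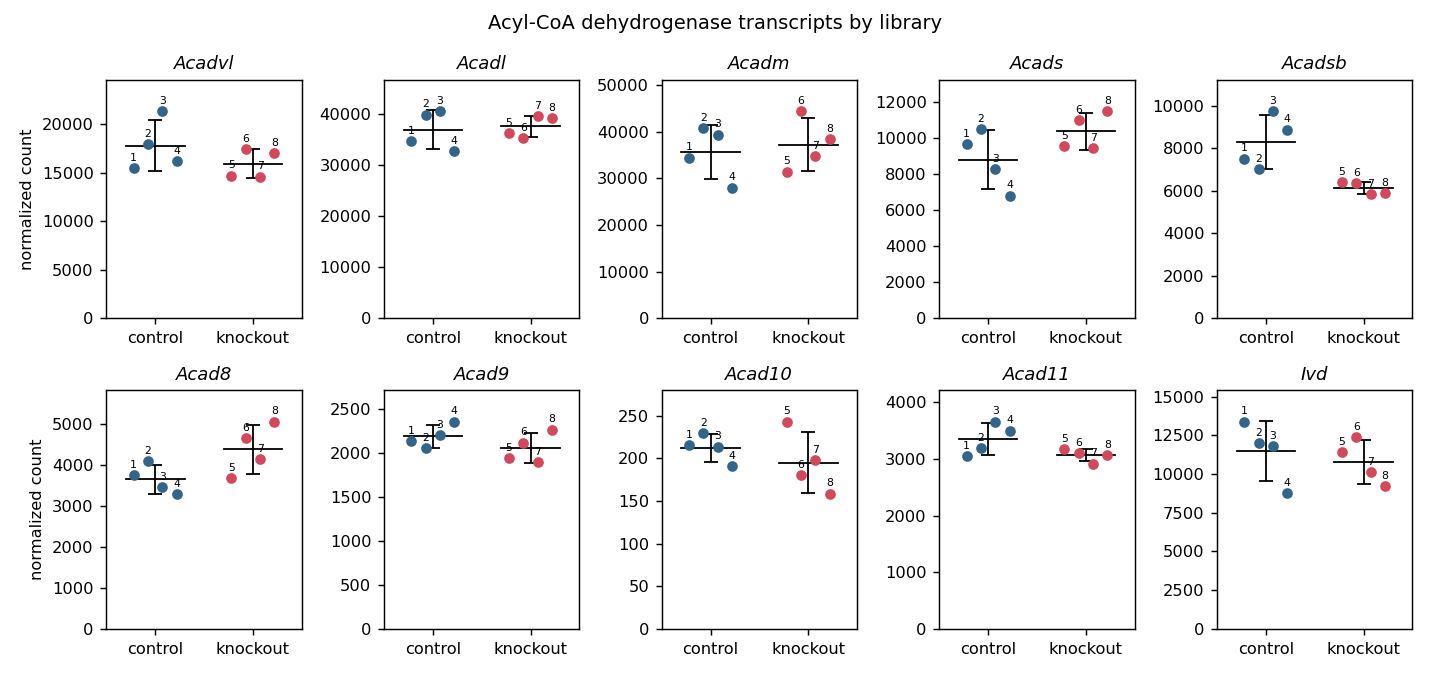
Normalized count of each of the 10 acyl-CoA dehydrogenase genes (vertical axis, from 0) in the 4 control and 4 knockout libraries; points are libraries with their replicate number, and bars give the mean and SD. Only for Acadsb do all 4 knockout values (5853 to 6409.85) lie below all 4 control values (7009.98 to 9756); in the other 9 panels the groups overlap.

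Acadvl, the membrane-bound enzyme that starts the oxidation of the longest chains, maps to chromosome 11 (minus strand), bases 70010183 to 70015411 and has 20 exons in its longest coding transcript. Control replicates 1 to 4 had normalized counts of 15507, 17986, 21388 and 16225, and knockout replicates 5 to 8 had 14707, 17406, 14605 and 16990.2. Control replicate 3 was the highest library, and 2 knockouts lay below all controls. The means were 17776.5 ± 2624 and 15927 ± 1478 (SD, n = 4 each), a log2 difference of -0.15 with a 95% interval of -0.42 to 0.11 (limma, adjusted p = 0.441). Of its exon bases 42.9% lie over exons of Dvl2 on the other strand, and since the strand setting of the counting is not given in the sources used here, reads of both genes cannot be told apart there.

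Acadl, the soluble long-chain enzyme, maps to chromosome 1 (minus strand), bases 66830839 to 66863277, with 11 exons. Its normalized counts were 34729, 39943, 40695 and 32742 in controls and 36390.1, 35409.8, 39648 and 39238 in knockouts. All 4 knockout values fell inside the control range. The means of 37027 ± 3899 and 37671.5 ± 2091 gave a log2 difference of 0.03 with a 95% interval of -0.21 to 0.27 (limma, adjusted p = 0.884). The interval thus spans from 0.866 to 1.20 times the control level. A change of Acadl beyond these bounds lies outside the interval, and the sign of the small estimate turned under 4 of 22 alternatives. Some of the 22 change only the filter or the eBayes options and cannot move the estimate.

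Acadm, the medium-chain enzyme, maps to chromosome 3 (minus strand), bases 153922357 to 153944632, with 12 exons. Controls had 34444, 40729, 39374 and 27988.5, and knockouts 31410.4, 44461.5, 34683 and 38382.5. The lowest of the 8 libraries was control replicate 4 and the highest knockout replicate 6, so both groups spread widely. The log2 difference was 0.07 with a 95% interval of -0.24 to 0.37 (limma, adjusted p = 0.79). Without knockout replicate 6 the estimate was -0.02, and without control replicate 4 it was -0.04. Of the 50-base windows of its transcript 4.1% also occur in transcripts of the genes Gm45703 and Gm5131.

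Acads, the short-chain enzyme that acts on butyryl-CoA, maps to chromosome 5 (minus strand), bases 115110299 to 115119346, with 10 exons. Its normalized counts were 9664, 10519, 8282 and 6817 in controls and 9579.6, 11009.6, 9471 and 11526 in knockouts. The values of control replicates 3 and 4 were the lowest of all, and those of control replicates 1 and 2 lay among the knockouts. The log2 difference was 0.25 with a 95% interval of -0.04 to 0.55 (limma, adjusted p = 0.254; p = 0.171 by the two-sided exact permutation test). Without control replicates 3 and 4 it was 0.04, and with the trend over transcript length and GC content removed it was -0.02. The highest value was that of knockout replicate 8, the library with heart markers, without which the estimate was 0.20.

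Acadsb oxidizes 2-methylbutyryl-CoA from isoleucine and maps to chromosome 7 (plus strand), bases 131410601 to 131448944, with 11 exons. From control replicate 1 to 4 its normalized counts were 7510.06, 7009.98, 9756 and 8871, and from knockout replicate 5 to 8 they were 6409.85, 6359.83, 5853 and 5882. Every knockout lay below every control, and control replicates 3 and 4 were the highest. The means were 8287 ± 1256 and 6126 ± 300 (SD, n = 4 each), a log2 difference of -0.42 ± 0.12 (SE) with a 95% interval of -0.68 to -0.17. It did not pass over all genes (limma, adjusted p = 0.0796), and 609 genes had a smaller p. By an exact permutation test (two-sided) p was 0.0286, which is the lowest value 4 and 4 samples can reach.

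The size of the Acadsb difference depended on control replicates 3 and 4. Without both it was -0.25 with a 95% interval of -0.45 to -0.04 (limma, adjusted p = 0.61), and the knockouts still lay below control replicates 1 and 2. With those 2 controls alone, 9.42% of all genes had every knockout below. Over all 8 libraries, 7.06% of genes had every knockout below every control. Removing the trend over length and GC content gave -0.24 (limma, adjusted p = 0.145). With the trend removed and both libraries left out it was -0.20 (limma, adjusted p = 0.701). It passed by limma when control replicate 1 was left out (-0.47, adjusted p = 0.0417), when control replicate 2 was (-0.50, adjusted p = 0.0253) and with sample quality weights (-0.45, adjusted p = 0.0417). In these fits 5.46%, 6.54% and 3.88% of all genes passed as lower. Acadsb was below zero under all 22 alternatives, of which those that change only the filter or the eBayes options cannot move the estimate.

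Acad8, which oxidizes isobutyryl-CoA from valine, maps to chromosome 9 (minus strand), bases 26974135 to 26999566, with 11 exons. Its normalized counts were 3757, 4104, 3463 and 3299.8 in controls and 3685, 4664, 4149 and 5068 in knockouts. In 3 knockouts the value was above all controls, and knockout replicate 5 lay inside the control range. The log2 difference was 0.26 with a 95% interval of -0.003 to 0.52 (limma, adjusted p = 0.19, and p = 0.114 by the two-sided exact permutation test). It was 0.32 with the length and GC trend removed, 0.15 without control replicates 3 and 4 and 0.19 without knockout replicate 8, its highest library. All 22 alternatives, some of which cannot move the estimate, kept it above zero and none took it past the threshold.

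Ivd, the isovaleryl-CoA dehydrogenase of leucine breakdown, maps to chromosome 2 (plus strand), bases 118861954 to 118882909, with 12 exons. Controls had 13386, 11984.5, 11809 and 8791, and knockouts 11427, 12375, 10141 and 9194. The 4 knockout values lay inside the control range, which ran from control replicate 4 to control replicate 1. The log2 difference was -0.08 with a 95% interval of -0.39 to 0.22 (limma, adjusted p = 0.728). Without control replicates 3 and 4 it was -0.24.

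The branched-chain enzymes thus had estimates on both sides of zero: Acadsb at -0.42, Ivd at -0.08 and Acad8 at 0.26. The within-library log2 ratio of Acadsb to Acad8 was 1.00, 0.77, 1.49 and 1.43 in controls and 0.80, 0.45, 0.50 and 0.21 in knockouts. Knockout replicate 5 lay just above control replicate 2, so the groups overlapped by this pair of libraries. The ratio of Acadsb to Ivd overlapped more, at -0.83 to 0.01 in controls and -0.96 to -0.64 in knockouts. The ratio was not tested, since the pairs were picked with the members' values known.

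Acad9, the complex I assembly factor that resembles Acadvl, maps to chromosome 3 (plus strand), bases 36065979 to 36092853, with 18 exons. Its normalized counts were 2137, 2053, 2203 and 2357 in controls and 1938, 2116, 1892 and 2265 in knockouts. The spread was among the smallest of the family, with the highest library 1.25 times the lowest. The log2 difference was -0.09 with a 95% interval of -0.32 to 0.13 (limma, adjusted p = 0.589), and 0.09 with the length and GC trend removed. Of its transcript windows 13.5% recur in other transcripts, so the count is uncertain to that extent.

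Acad10 maps to chromosome 5 (minus strand), bases 121621026 to 121660514, with 21 exons, and Acad11 to chromosome 9 (plus strand), bases 104063377 to 104127725, with 20 exons. Acad10 was the lowest member, at 215, 230.1, 214 and 191 in controls and 243, 181, 198 and 159 in knockouts. Knockout replicate 5 had its highest value and knockout replicate 8 its lowest. The log2 difference of Acad10 was -0.14 with a 95% interval of -0.53 to 0.26, the widest of the family (limma, adjusted p = 0.656). Of its transcript windows 20.4% also occur in its relative Acad12, so reads of this pair could be split. Acad11 had 3058, 3189, 3663 and 3502 in controls and 3179, 3103, 2919.5 and 3075 in knockouts. Control replicates 3 and 4 were its 2 highest libraries, and its log2 difference was -0.12 with a 95% interval of -0.34 to 0.09 (limma, adjusted p = 0.444). Of the transcript windows of Acad11 14.8% also occur in transcripts of Ackr4 and Gm28305, so its count is uncertain to that extent.

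**Figure D2:**
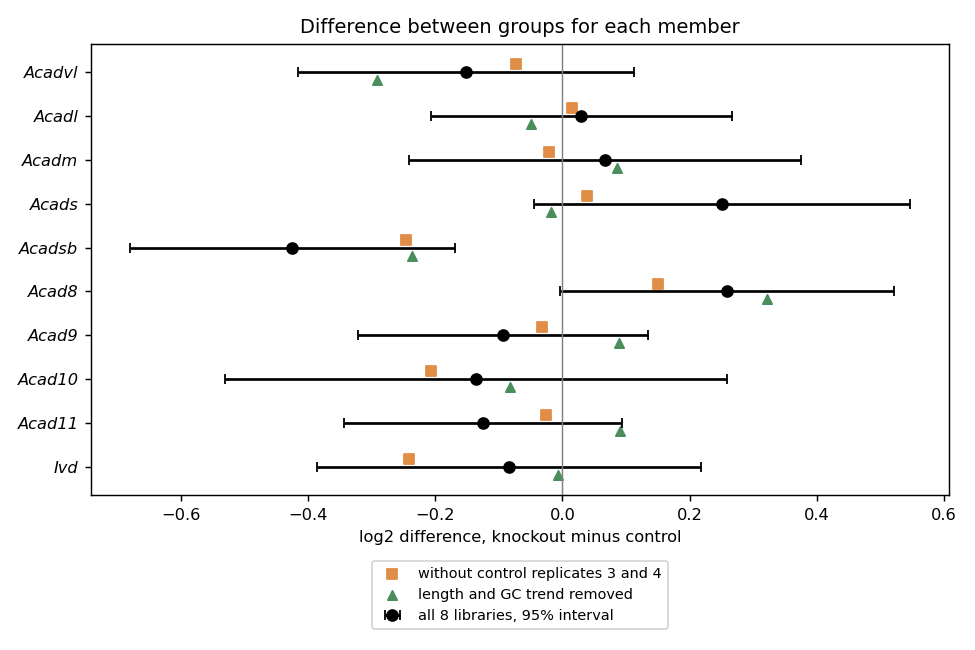
Log2 difference, knockout minus control (horizontal axis), for each member; circles and bars give the limma estimate and 95% interval over all 8 libraries, squares the estimate without control replicates 3 and 4, and triangles the estimate after removal of the trend over length and GC content. The Acadsb interval (-0.68 to -0.17) lies below zero before adjustment over all genes, and the squares and triangles of Acadsb lie closer to zero.

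In control replicates 3 and 4, the deviation of members from their own mean over the 8 libraries only partly followed merged exon length. The longest members, Acadsb, Acad9 and Acad11, had mean log2 deviations of 0.39, 0.11 and 0.16 over these libraries. Acadl and Acads, which lie in the shortest quartile of all genes, had -0.03 and -0.34. Acadm, Acad8, Ivd and Acad10, of lengths between these, had -0.12, -0.24, -0.11 and -0.001. Acadvl was an exception among the short members, at 0.15, with a value of 0.35 in control replicate 3 beside -0.04 in control replicate 4. Control replicate 4 was the lowest library for 5 of the 10 members and control replicate 3 the highest for 4. They also held, in this order, the lowest and the highest sum of slow and oxidative markers (185763 and 410585). In control replicate 3, Mb (171910) and Myh2 (143500) held most of that sum. Myh7, Myh2, Myl2 and Atp2a2 were highest in control replicate 3, and Tnni1, Tnnt1, Tnnc1 and Myl3 in knockout replicate 6. Mb was highest in control replicate 2. The part of fibre content in the members' values was not tested. The part of transcript length in the differences of single members was not tested beyond the trend-removed values given above.

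**Figure D3:**
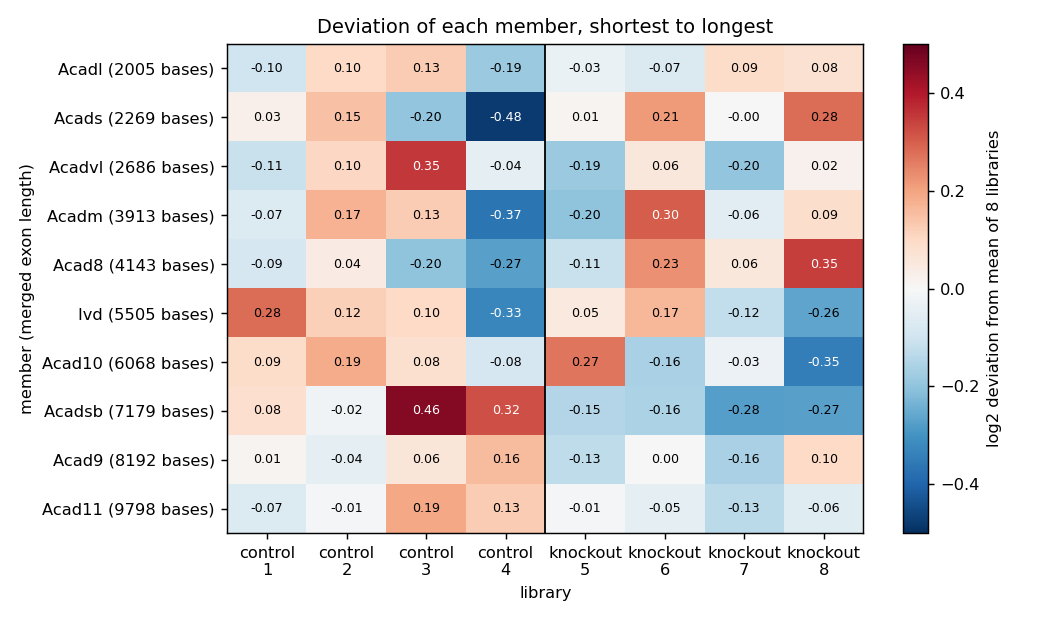
Log2 deviation of each member from its mean over the 8 libraries (colour and printed value), with members in rows from the shortest to the longest merged exon length and libraries in columns, controls left of the line. Acads is lowest in control replicate 4 (-0.48), and Acadsb is highest in control replicates 3 and 4 (0.46 and 0.32) and below zero in all 4 knockouts.

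Levels of different genes were compared per length, as normalized count per kilobase of merged exons. In controls the order was Acadl, Acadm, Acadvl, Acads, Ivd, Acadsb, Acad8, Acad11, Acad9 and Acad10. Acadl, the long-chain enzyme, led at 18468 ± 1944.5 per kilobase (SD, n = 4), above 99.2% of tested genes with an annotated length. Acadm followed at 9107 ± 1474, Acadvl at 6618 ± 977 and Acads at 3887 ± 715 per kilobase. Among straight-chain enzymes the level was therefore not ordered by chain length, since Acadvl came after Acadl and Acadm. The level of Acadvl is uncertain, because part of its exon bases lie over exons of Dvl2, as given above.

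Below them came the branched-chain enzymes, with Ivd at 2088 ± 351, Acadsb at 1154 ± 175 and Acad8 at 882 ± 85.4 per kilobase. Acad11 had 342 ± 28.4, Acad9 267 ± 15.7 and Acad10 35.0 ± 2.68 per kilobase. The most and the least abundant members thus stood at the 99.2 and 27.4 percentiles of tested genes. As shares of the family's per-length sum, the 4 straight-chain enzymes made up 88.8% ± 0.873 in controls and 89.7% ± 0.684 in knockouts. The branched-chain enzymes made up 9.67% ± 0.762 and 8.96% ± 0.640, and the ranges of the groups overlapped in both classes. Counted without length, the 10 genes together took 0.178% ± 0.0236 of all normalized counts in controls and 0.178% ± 0.0132 in knockouts.

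Of the 9 neighbouring pairs in this order, 8 held within each of the 8 libraries. No test is given for them, since the order was set on the control means of these libraries. The exception was Acadsb and Acad8, which kept the order in 4 of 8 libraries, with log2 ratios per length from -0.58 to 0.70 and a median of -0.01, and Acad8 came first in the knockout means. The closest of the other pairs was Acad11 over Acad9, at log2 ratios of 0.18 to 0.48, where both counts are uncertain by the shared windows given above. Control values of Acadm and Acadvl overlapped across libraries although Acadm was higher within each. The size of the lead of Acadl over Acadm depended on the length used, with a median log2 ratio of 1.00 over merged exons. With the longest coding transcript as length, Acadl had 19325 ± 2035 and Acadm 17408 ± 2818 per kilobase, and Acadl was higher in 7 of 8 libraries (median log2 ratio 0.14). With merged exons of coding transcripts it was also higher in 7 of 8 (median 0.21). With the longest coding transcript all 10 members kept their places, and Acad11 and Acad9 stood at 974 and 557 per kilobase. With merged exons of coding transcripts alone, Acad8 came before Acadsb, in 6 of 8 libraries.

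**Figure D4:**
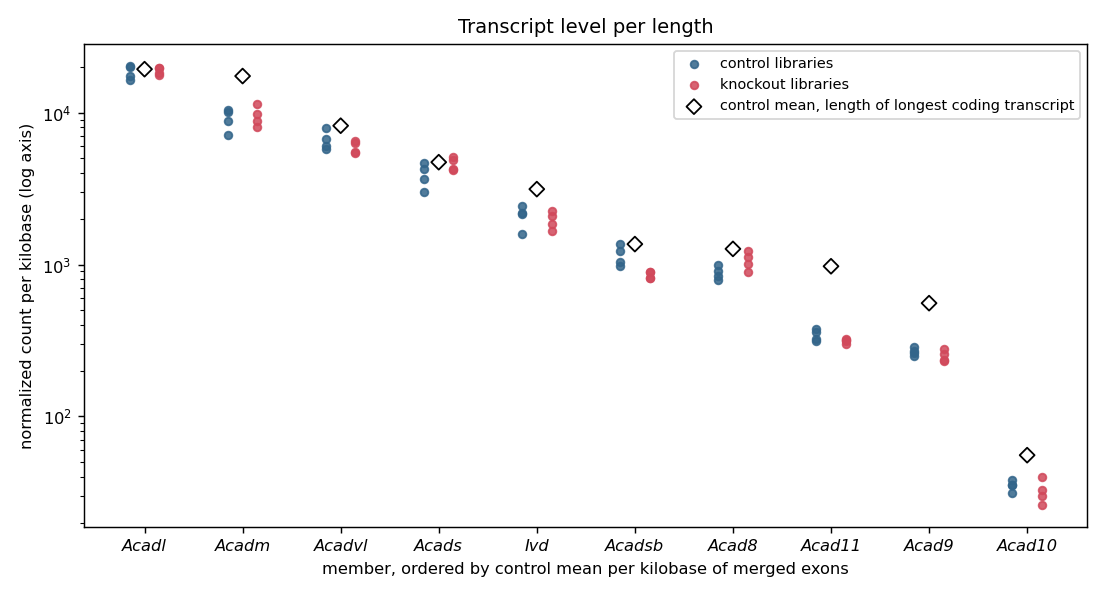
Normalized count per kilobase of merged exons (vertical log axis) for the 10 members in order of their control mean; filled points are libraries, blue for controls and red for knockouts, and open diamonds give the control mean when the longest coding transcript is the length. Levels run from 18468 per kilobase for Acadl to 35.0 for Acad10, and the diamonds bring Acadm (17408) close to Acadl (19325).

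For the 3 members of highest level, the genes of most similar profile were found as those with the smallest root-mean-square distance between log2 deviations over the 8 libraries, among 11597 other genes whose mean was 100 or more normalized counts. The nearest gene to Acadm was Etfa, a subunit of the electron transfer flavoprotein, at a distance of 0.06 against a median of 0.30 over all genes, followed by Hmgb3 and Adck3 at 0.08 each. Acadl was nearest to Rwdd2b at 0.03, then to Rbm7 and Ercc3 at 0.06 and 0.07, where the median was 0.25. For Acadvl the nearest were Sco1, Agpat3 and Fam134b, each at 0.07 with a median of 0.28. Control replicates 3 and 4 enter all these profiles. The smallest of 11597 distances lies far below their median by selection, so the names are a description only.

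The dehydrogenases hand their electrons to the flavoprotein Etfa-Etfb and from there to Etfdh, which reduces ubiquinone. Of these 3 genes 0 passed the test, and 2 estimates were higher and 1 lower. Etfa had a mean normalized count of 20264 in controls and 21092 in knockouts, a log2 difference of 0.06 (limma, adjusted p = 0.767). Etfdh had 16430 and 14187.5, a log2 difference of -0.20 (limma, adjusted p = 0.371). Etfb had 1684 and 3291, a log2 difference of 1.03 with a 95% interval of 0.51 to 1.56 (limma, adjusted p = 0.0796). Leaving out control replicates 3 and 4 gave 0.59. The count of Etfb is uncertain, because 58.2% of its exon bases lie in exons of other genes on the same strand.

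In the other lists around the family 0 of 52 tested genes passed in either direction. Of 5 genes for riboflavin and its conversion to FAD, the cofactor of the dehydrogenases, 2 had higher and 3 lower estimates (median -0.05). The riboflavin carrier Slc52a2 had a log2 difference of 0.41 with no overlap between groups (limma, adjusted p = 0.117), as had 13.1% of all genes in either direction. Slc25a32, of the same list, went the other way at -0.85 (limma, adjusted p = 0.159), or -0.14 when control replicates 3 and 4 were left out. Of the 5 tested partners of Acad9 in complex I assembly, 4 estimates were higher and 1 lower (median 0.05), with Timmdc1 at 0.29 (0.15 when control replicates 3 and 4 were left out) and Tmem186 at -0.24. Of the 5 tested relatives of the family, 2 were higher and 3 lower (median -0.11). Gcdh and Acad12 had log2 differences of 0.05 and -0.11. Acox2 was at a mean of 5.69 in controls and 18.9 in knockouts, counts near the floor of 2.04 to 3.87 that 3 reads set.

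For the entry of fatty acids into mitochondria, 2 estimates were higher and 2 lower (median -0.10). Cpt1b, the carnitine transferase of muscle, differed by -1.42 on the log2 scale (limma, adjusted p = 0.0796), at means of 68.8 and 27.1, with 81.4% of its exon bases inside exons of another gene on the same strand. Of the 9 enzymes that follow the dehydrogenases, 7 estimates were higher and 2 lower. Their median was 0.18 over all libraries and 0.04 when control replicates 3 and 4 were left out. Hsd17b10, which also acts in isoleucine breakdown, had 0.37 and Hadha, of the trifunctional protein, -0.27. Leaving out these 2 controls gave 0.06 for Hsd17b10 and -0.19 for Hadha. The 15 genes of branched-chain amino acid breakdown had 6 higher and 9 lower estimates (median -0.06). Pcca, the propionyl-CoA carboxylase subunit that follows Acadsb, had a log2 difference of -0.41 (limma, adjusted p = 0.0875), or -0.34 when control replicates 3 and 4 were left out. Of 9 tested transcription factors and deacylases, 4 were higher and 5 lower (median -0.12), with Ppara at -0.93 and Esrra, a regulator of oxidative genes, at 0.36. Leaving out control replicates 3 and 4 brought Ppara to -0.31 and Esrra to 0.08.

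**Figure D5:**
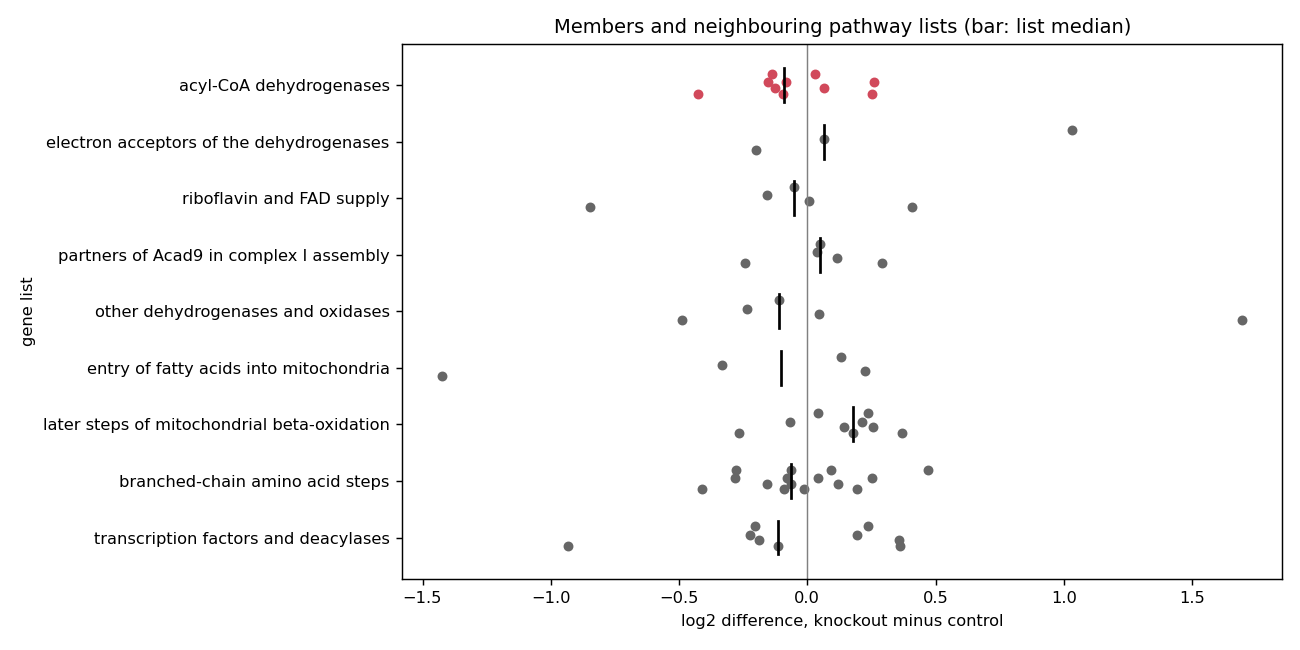
Log2 difference, knockout minus control (horizontal axis), of the 10 members (red) and of the tested genes of 8 lists around them (grey); each point is a gene and each bar the list median. The list medians run from -0.12 to 0.18, and no point passed the test over all genes.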

How the data were processed

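The deposited table holds 1 column per sample. Its values are log2 values: per the file's own numbers, the authors took log2 of (gene count divided by a size factor per sample, plus 1), because undoing the log2 gave whole multiples of 1 step per sample (within 0.1 of a read for 100% of values up to 1000 reads). The tools named by the submitters' processing notes are STAR, HTSeq, DESeq2, cutadapt and FastQC, with build GRCm38; for versions, annotation and strand setting, the sources used here give none. Per the labels' protocols, RNA came from a Norgen Biotek kit and libraries from an NEB Next Ultra II kit.

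The log2 was undone to give normalized counts. Genes with a mean of at least 10 (15657) were fitted on log2(normalized count + 1) by limma 3.58.1 (R 4.3.3), with trend and robust eBayes and Benjamini-Hochberg adjustment over all of them at 0.05. This scale understates changes of low genes. limma voom was run on recovered reads as an alternative, with other pseudocounts, filters and scalings, each replicate left out, and the trend over exon length and GC content removed by loess (span 0.5, 15136 annotated genes). The fit was tested on simulated counts. Lengths and coordinates came from GENCODE M21 (GRCm38), promoters from RefSeq. Intervals cover only the spread between these libraries within a group, and the floor of 3 reads only the sampling of reads. Neither covers other error. The members, lists and alternatives were chosen with earlier results of these data known. All members were named, as were at most 3 genes of smallest p per list, with Gcdh, Acad12 and Acox2 added after their values were seen; some genes that this rule picks are not reported here. Python 3.11.15 served for tables and plots.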

Additional observations from a re-analysis of the deposited data

How the results depend on the processing

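The count of genes called over the whole table was 1 as reported and 2 with no filter, with equal totals, without knockout replicate 6 and without knockout replicates 6 and 8. It was 7 without the trend and robust options of eBayes, 4 with the length and GC trend removed and 1201 with sample quality weights, and it ran from 1 to 2048 with each replicate left out (1722 without control replicate 1, 2048 without control replicate 2). The count of members past the threshold was 0 as reported and 1, Acadsb, with sample quality weights and without control replicate 1 or 2, so 0 to 1 with each replicate left out. The count of members at an unadjusted p under 0.05 was 1 as reported, 2 with TMM scaling or quantile normalization, 3 with the length and GC trend removed, 1 to 3 with each replicate left out, and 0 when the trend was removed and, at once, control replicates 3 and 4 were dropped, an alternative chosen after seeing the data.

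Signs turned for members with estimates near zero. Acadl was -0.0352 with quantile normalization, -0.0491 after trend removal and -0.00947 when control replicates 3 and 4 were also dropped, and -0.0279 to 0.0767 with each replicate left out (lowest without control replicate 4). Acadm was -0.00427 with quantile normalization, -0.0205 without control replicates 3 and 4, -0.0237 when the trend was removed as well and -0.0954 without knockout replicates 6 and 8. It ran from -0.0446 (without control replicate 4) to 0.144 with each replicate left out, and was -0.0228 without knockout replicate 6. Acads was -0.0177 after trend removal and -0.0515 with both changes. In the same pair of fits Acad9 was 0.0882 and 0.00513, and Acad11 was 0.0902 and 0.0178. Acad10 was 0.0501 without knockout replicates 6 and 8. The cause was not tested. Acadvl (-0.29 to -0.06), Acadsb (-0.50 to -0.20), Acad8 (0.10 to 0.34) and Ivd (-0.24 to -0.01) kept their signs under all 22 alternatives. Those that change only the filter or the eBayes options cannot move an estimate. Other pseudocounts, TMM scaling and voom moved these estimates little, so the count of 22 overstates how far the signs were put to the test. No paired analysis was possible because the groups share no replicate number.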
